A study of Nematostella vectensis with 84 samples.

Results

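The T4 and T0 libraries of the cytochalasin D series of the starlet sea anemone Nematostella vectensis were compared gene by gene. They were chosen by treatment and time point alone, as 6 libraries titled T4 A to F and 6 titled T0 A to F, 12 of the 84 libraries in the study. The T4 group holds oral disc and tentacles of adults exposed to cytochalasin D and sampled at the last of its recovery time points. The T0 group holds the same tissue and stage, labelled as time point 0 of the same cytochalasin D series. Sampling during recovery was hourly per the labels; the sources used here do not give the dose, the length of exposure, or whether T0 was taken before or after the drug. No strain, clone or sex is named and no untreated series was analysed here, so every library in both groups belongs to the drug series. The labels name 6 replicates per group, whereas the design text counts 3 replicates and 2 conditions per time point and does not say which letters these would be. Nothing states that the letters are separate animals, so SDs, SEs and p-values measure the spread between libraries, which may be technical. The numbers that end the sample titles run consecutively within each cytochalasin D time point, but are mixed over time points in the calcium-free series. What these numbers stand for is not stated, so an effect of their order cannot be told apart from time point.

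Actin is the protein of the thin filaments that give cells their shape, pull on junctions and fill the stereocilia of hair bundles. Cytochalasin D caps the growing end of these filaments and stops them from lengthening. The tentacles of sea anemones carry stinging cells together with hair bundles that detect vibration, and the bundles rest on actin. The identifiers of the deposited table are numbered gene models (NVE), and 0 of the 23510 matched the reference gene table, so no gene is named by function, no sequence is shown and the tissue label could not be checked against markers. At most 2 risen and 2 fallen gene models are given by number.

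The gene models described first were picked by a rule that asked for no overlap between the groups, so their separation is not a result. The 4 gene models described first were the 2 largest rises and the 2 largest falls among 71 gene models that passed the test both per library and with letter pairs summed (A and D, B and E, and C and F added together), did not overlap between the groups and lay above the median abundance. The test was edgeR's quasi-likelihood test with Benjamini-Hochberg adjustment at 0.05, the level is CPM (read counts scaled to a common library size by TMM), and the libraries are tag-based, so a level does not grow with gene length. Of the 71, 44 were higher and 27 lower at T4.

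NVE2343 rose in every T4 library. Its level at T4 was 1194, 1242, 1391, 1498, 1315 and 1496 CPM in letters A to F, against 215.6, 169.8, 205.1, 225.9, 192.1 and 218.4 CPM at T0. The lowest T4 library was thus 5.28 times the highest T0 library. Its mean was 1356 ± 127.9 CPM at T4 and 204.5 ± 20.7 CPM at T0 (SD, n = 6 each), a log2 fold change of 2.73 ± 0.17 per library and 2.75 ± 0.22 with letter pairs summed (SE; edgeR adjusted p = 2.35e-13 and 8.31e-07).

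NVE17523 rose as well, and was sparse at T0. At T4 it had 27, 24, 30, 21, 37 and 45 reads in letters A to F, and at T0 it had 3, 2, 3, 5, 4 and 7 reads. All 6 T4 libraries lay above all 6 T0 libraries, by 3.56 times at the closest in CPM. The mean level was 105.9 ± 17.4 CPM at T4 and 13.6 ± 6.27 CPM at T0 (SD, n = 6 each), a log2 fold change of 2.96 ± 0.29 per library and 3.00 ± 0.30 summed (SE; edgeR adjusted p = 2.13e-08 and 1.09e-05).

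NVE16297 fell, and its level also followed the letters. It stood at 52.9, 30.9, 28.1, 82.7, 81.6 and 152.5 CPM at T4 in letters A to F, against 327.3, 393.6, 333.3, 914.7, 957.5 and 774.2 CPM at T0. Letters D to F were the higher 3 libraries at both time points, with means of 105.6 CPM at T4 and 882 CPM at T0, whereas letters A to C averaged 37.3 CPM at T4 and 351 CPM at T0. The groups did not overlap, and the log2 fold change was -3.08 ± 0.43 per library and -3.04 ± 0.20 summed (SE; edgeR adjusted p = 4.26e-05 and 1.22e-07). Each letter pair holds 1 letter from A to C and 1 from D to F, and the summed levels were 65.4, 54.3 and 91.5 CPM at T4, against 597, 614 and 541 CPM at T0.

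NVE13078 also fell. It had 4.41, 34.3, 6.25, 41.4, 17.0 and 31.6 CPM at T4, against 88.6, 110.6, 80.6, 371.7, 242.5 and 215.1 CPM at T0, in letters A to F. T0 letters D to F again held the higher 3 libraries, at a mean of 276 CPM against 93.3 CPM in T0 letters A to C. The T4 level rests on 1 to 12 reads per library. The log2 fold change was -3.02 ± 0.56 per library and -3.00 ± 0.27 summed (SE; edgeR adjusted p = 0.000708 and 3.30e-06).

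**Figure D1:**
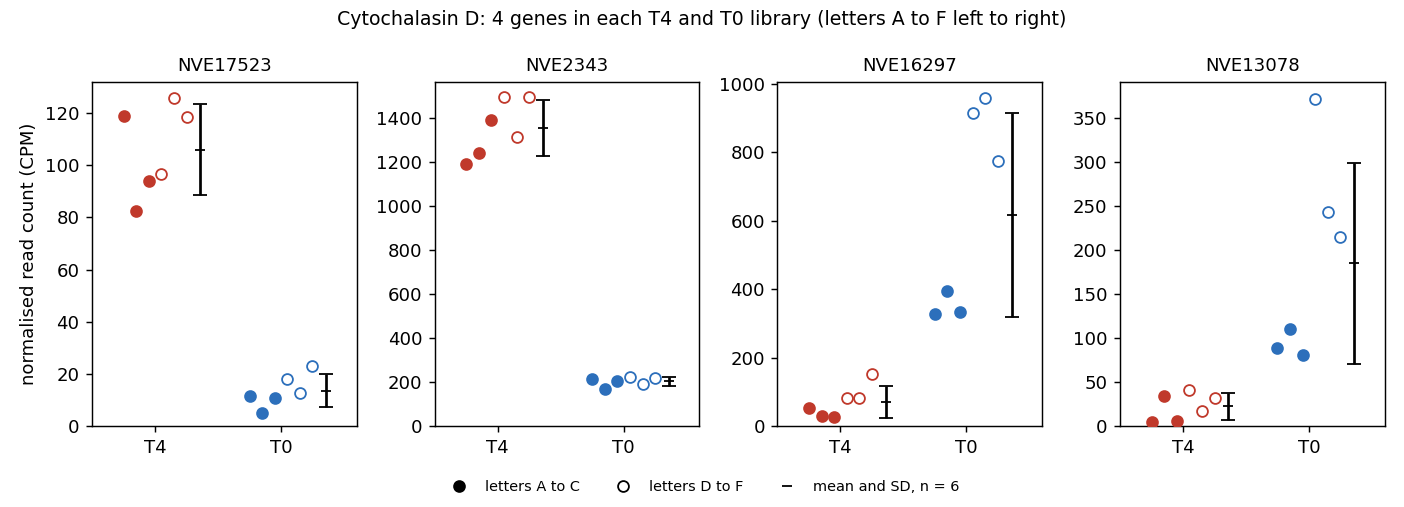
Normalised read count (CPM, y axis from 0) of the 4 gene models in each cytochalasin D library at T4 and T0, letters A to F from left to right within a group, with the mean and SD (n = 6) as a bar. The T4 libraries of NVE2343 lie between 1194 and 1498 CPM, against 169.8 to 225.9 CPM at T0, and the open points (letters D to F) of NVE16297 are the higher ones at T0, between 774.2 and 957.5 CPM.

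In all, 449 of the 4534 gene models tested per library were called, which is 9.9% of them. Of these, 252 were higher at T4 (5.56%) and 197 lower (4.34%). At an unadjusted p under 0.05 there were 1040. Of the calls, 56.1% were thus higher, but 41.5% were when libraries were scaled by their totals alone, and the lower genes were the more numerous in 4 of the 25 settings tried. Without the T4 library D the count was 294. The 4534 gene models tested held 91.5% of the reads of the cytochalasin D libraries, out of 21119 with any read in the 12 libraries.

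Most gene models had small fitted changes between T4 and T0. Over all those tested, the median log2 fold change was 0.01, the quartiles were -0.28 and 0.28, and 50.8% were higher at T4. TMM scaling centres the changes near 0, so the median and the share higher follow largely from it. With library totals alone they were -0.061 and 43.96%. The median SE was 0.27, so the quartiles were about the size of the SE. A log2 fold change over 1 in size was fitted for 254, of which 96 were higher and the others lower. Of the 252 that rose, 76 changed by under 1.5-fold, 57 by 2 to 4-fold, 8 by over 4-fold and the remainder by 1.5 to 2-fold. Of the 197 that fell, 19 changed by under 1.5-fold, 83 by 1.5 to 2-fold, 71 by 2 to 4-fold and 24 by over 4-fold. The median log2 fold change was 0.76 among genes that rose and -0.99 among those that fell, and since the call selects large estimates, both are descriptions. On simulated counts drawn from the levels of these 4534 gene models, the per-library test called 18.1% of genes changed 1.5-fold, 53.5% of those changed 2-fold and 94.3% of those changed 4-fold. The simulated libraries were independent, with no effect of letter or source, and fewer gene models were changed than were called here. The rates hold for that setting only.

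**Figure D2:**
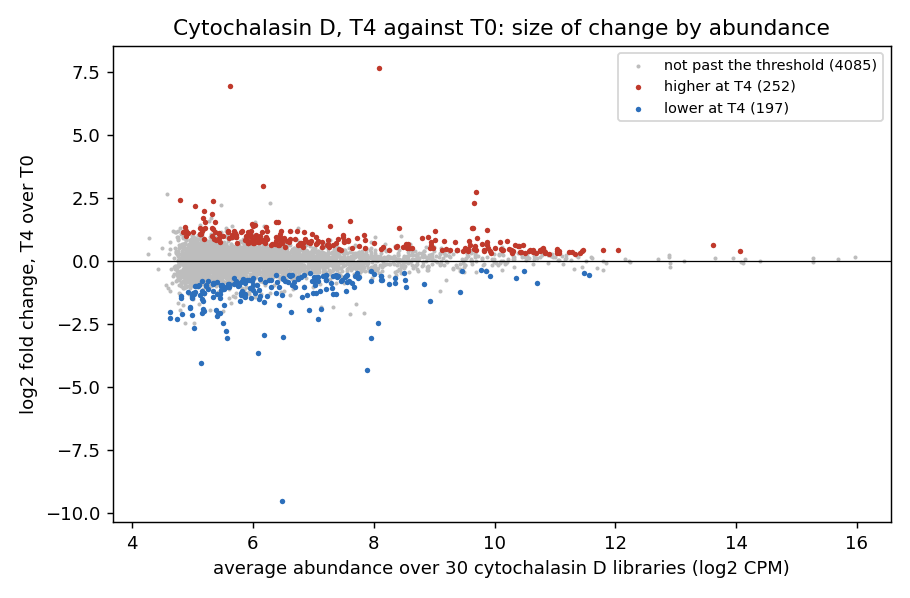
Log2 fold change of T4 over T0 (y axis) against average abundance over the 30 cytochalasin D libraries (log2 CPM, x axis), 1 point per gene model tested; red points rose, blue points fell and grey points did not pass the threshold. The 252 red and 197 blue points narrow toward 0 as abundance grows, and the lowest point is a gene model with 0 reads at T4.

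Both directions lay more among abundant gene models than among sparse ones. Of the genes that rose 82.1% were above the median abundance, and of those that fell 65%, where all genes tested give 50%. The genes tested were split into 5 classes by their mean over all 30 libraries, so that the split did not follow the change. In the most abundant class 20.5% were called, 126 higher and 60 lower, whereas in the least abundant class 5.18% were called, 14 higher and 33 lower. The middle class had 35 higher and 37 lower. With DESeq2 size factors the least abundant class had 14 higher and 35 lower. With library totals alone the most abundant class had 79 higher and 67 lower, and the least abundant 9 higher and 38 lower. Of all genes in the most abundant class, called or not, 57.2% were higher at T4, or 55.8% with DESeq2 size factors and 48.3% with library totals.

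What could be called differed with abundance. The smallest called change was 0.28 on the log2 scale in the most abundant class and 0.95 in the least abundant, where the median SE over all genes was 0.16 and 0.36. The genes that rose had a median level of 156.9 CPM at T4 and 91.2 CPM at T0, and those that fell had 45.2 CPM at T4 and 101 CPM at T0. All tested genes had a median of 48.9 CPM at T4 and 49.2 CPM at T0.

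**Figure D3:**
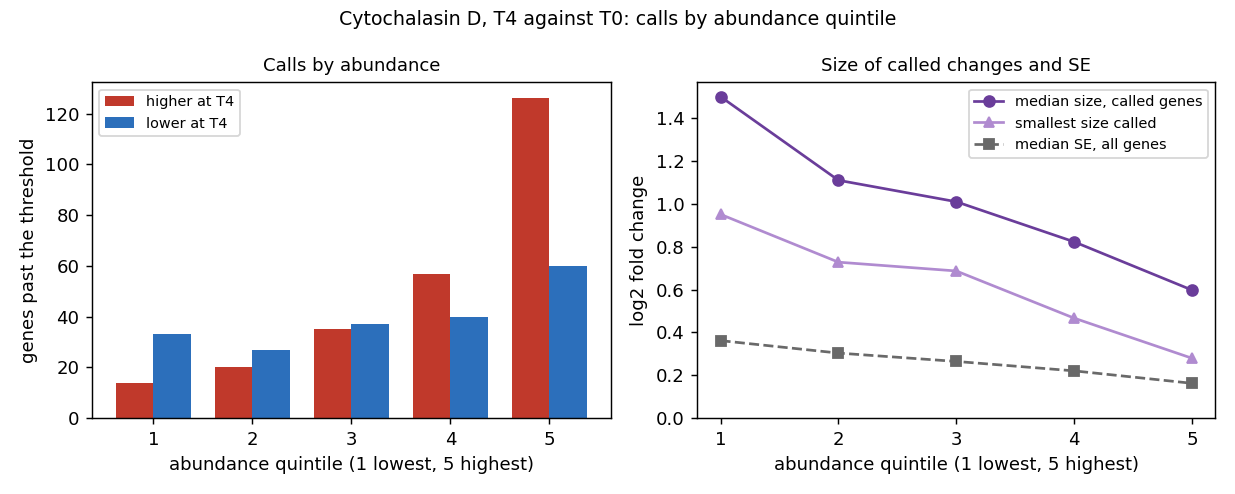
Left, number of gene models called higher (red) and lower (blue) at T4 in each abundance quintile, 1 the lowest and 5 the highest; right, median and smallest size of called log2 fold changes and the median SE of all genes in the quintile. Calls go up to 126 higher and 60 lower in quintile 5, while the smallest size called drops to 0.28.

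The 10 most abundant gene models took 29.3% of the reads at T4 and 29.2% at T0. Of these 10, 1 was called higher and 0 lower by edgeR, with log2 fold changes between -0.07 and 0.37, and 0 of them were called with letter pairs summed. Of the 100 most abundant, 34 were called higher and 4 lower per library and 10 in either direction with letter pairs summed, with a median log2 fold change of 0.17. The called genes as a whole shifted the make-up of the libraries more. The genes that rose took 14.7% to 17.0% of the reads in the T4 libraries and 11.0% to 12.1% in the T0 libraries, and the genes that fell took 1.71% to 2.26% at T4 and 3.45% to 4.11% at T0. These shares restate the choice of the genes and are given as amounts only.

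Full separation of the groups was less common than a call. In 3.82% of the 4534 gene models the 6 T4 libraries all lay outside the range of the 6 T0 libraries, 88 above (1.94%) and 85 below (1.87%). Of the 449 calls, 32.3% had this separation, 74 of those higher and 71 of those lower. The other 304 called gene models overlapped in at least 1 library.

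The largest fitted changes belonged to gene models with 0 reads in some libraries of the higher group. The gene model with the largest called rise stood at 511.1, 0, 534.5, 909.8, 683.1 and 1128 CPM at T4 in letters A to F, against 0, 7.72, 3.66, 3.64, 0 and 0 CPM at T0. It was high in 5 T4 libraries and at 0 in T4 B, so the groups overlapped, and its log2 fold change was 7.66 ± 2.0 (SE; edgeR adjusted p = 0.0118 per library and 0.0986 summed). The second largest rise was also at 0 in T4 B, with 18, 0, 26, 49, 40 and 63 reads at T4, against 1 read in T0 C and 0 in the other T0 libraries.

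The largest called fall had 0 reads in all 6 T4 libraries, against 612.2, 159.5, 0, 594, 302.4 and 0 CPM at T0 in letters A to F. With a floor of 3 reads over the summed T4 reads, it was at least 158.6-fold lower at T4 (edgeR adjusted p = 0.0113 per library and 0.111 summed). T0 C and F were also at 0, so the groups overlapped.

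The second largest called fall was of another kind. It stood at 8.81, 30.9, 15.6, 18.4, 17.0 and 15.8 CPM at T4, against 377.3, 290.7, 307.6, 397.2, 406.3 and 430.1 CPM at T0, with every T0 library above every T4 library. Its log2 fold change was -4.33 ± 0.89 (SE), with an edgeR adjusted p of 0.00214 per library and 0.0572 summed, so it missed the threshold of the second test.

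More gene models had no reads at T4 than at T0. With at least 10 reads in the other group, 21 gene models had 0 reads at T4 and 3 had 0 reads at T0, both out of all 23510. Fewer gene models had any read at T4 (19399) than at T0 (19921). Of the 21, 15 were seen in all 3 letter pairs of T0 and 5 in all 6 libraries. Apart from the one with 480 reads at T0 described above, the highest had 44 reads at T0, which the floor of 3 reads puts at least 14.5-fold lower at T4. Only 1 of the 21 passed the filter on low counts and could be called, the one with 480 reads. Floors cover counting error only.

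Structure by letter pair was slight over most gene models by the measures below and was clearest at T0. At T0, 18 gene models had at least 10 reads in both libraries of 1 letter pair and 0 in both libraries of another, 10 being off in A and D, 3 in B and E and 7 in C and F, some in more than a single pair. At T4 there was 1, and both counts are out of all 23510 gene models. Of the 19 in all, 15 were tested and 1 was called, the fall to 0 reads described above; without the 19, 448 genes were called. In the 2267 gene models above the median abundance, deviations from the T0 group mean correlated at 0.05, 0.03 and -0.04 within the letter pairs, beside a median of -0.27 between other T0 letters, and at -0.12, -0.22 and -0.13 within pairs at T4, beside a median of -0.19. Centring on a mean of 6 libraries by itself makes the deviations of unrelated letters correlate below 0. Over the cytochalasin D libraries, the consensus correlation within a letter pair was 0.03. Over the genes tested, the median mean square was 0.146 between letter pairs within a time point and 0.141 within pairs. No label says that the letter pairs of T4 and T0 are the same sources, so a difference between sources and a difference between time points cannot be told apart.

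With letter pairs summed, 213 of 7329 gene models were called (2.91%), 1.51% higher and 1.39% lower, and 1324 had an unadjusted p under 0.05. The calls shared with the per-library test numbered 189, which is 42.1% of the 449 and 88.7% of the 213. Of the 24 called with sums alone, 15 had not been tested per library. All 449 had the same sign in both fits, the median difference between the 2 log2 fold changes was 0.02 in size over the 4534 genes tested in both, and the median SE was 0.27 in both. The sums hold the same reads as the libraries, so the like signs and sizes follow largely from that and test nothing. Of the 2795 gene models that only the sums could test, 7 were called higher and 8 lower. Leaving out the summed T4 pair A and D took the 213 to 57, and pairs at both time points moved it by over 1.5 times: the count was 76 without T4 B and E, and 120, 109 and 89 without T0 A and D, B and E, or C and F.

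**Figure D4:**
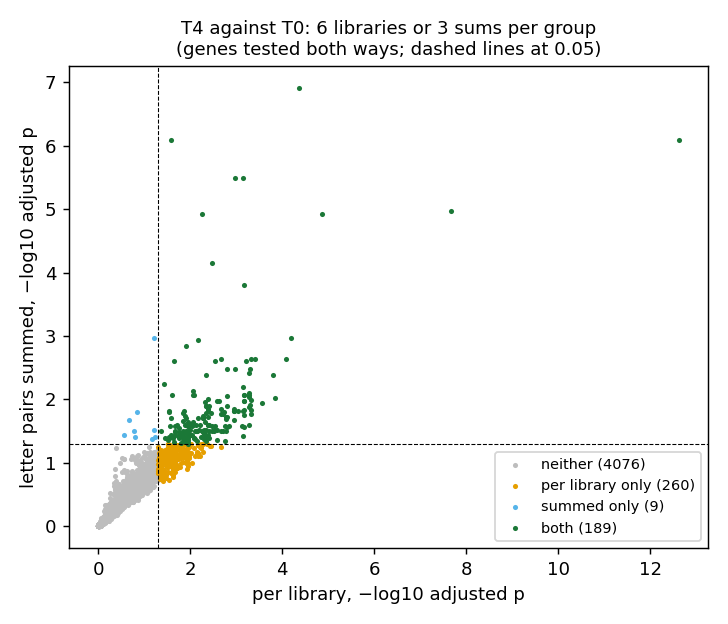
Adjusted p of T4 against T0 on a −log10 scale, per library (x axis, n = 6 per group) and with letter pairs summed (y axis, n = 3 per group), for the 4534 gene models tested both ways, with dashed lines at 0.05. Green points (189) passed both tests and orange points (260) passed per library only.

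Letters A to C and letters D to F were also tested apart. Within letters D to F 233 of 4398 gene models were called (5.3%; 2.75% higher and 2.55% lower), and within letters A to C 29 of 4850 (0.598%; 0.289% higher and 0.309% lower), with 19 called in both. At an unadjusted p under 0.05 the numbers were 955 and 685. The test of the difference between these 2 sets of letters passed in 0 of 5333 gene models by edgeR (0%), with 384 at an unadjusted p under 0.05. With so few libraries per set it can miss differences, so it does not show that the changes were alike. At T4, 80.2% of the genes that rose were higher in letters D to F than in A to C, against 48.9% of all tested. At T0 the shares were 65.1% and 50.4%. Of the genes that fell, 38.6% were higher in letters D to F at T4 and 52.3% at T0. Every one of the 449 calls that could be fitted kept its sign, 444 within D to F and 440 within A to C, though the same libraries had chosen them.

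The 4 gene models named above passed within each set of letters, though the same libraries had chosen them. NVE2343 had log2 fold changes of 2.76 ± 0.25 in letters D to F and 2.69 ± 0.24 in letters A to C (SE; edgeR adjusted p = 5.03e-06 and 5.35e-06). NVE16297 had -3.02 ± 0.32 and -3.27 ± 0.37 (SE; edgeR adjusted p = 1.96e-05 and 8.06e-05), and the difference between them was 0.27 ± 0.51 on the log2 scale (SE, edgeR adjusted p = 0.969). NVE13078 in letters A to C had the smallest of these changes, -2.59 ± 0.54 (SE, edgeR adjusted p = 0.0306).

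The time points between T0 and T4 held intermediate levels of both named rises. NVE2343 averaged 204.5 ± 20.7 CPM at T0, 491.7 ± 59.8 at T1, 970.8 ± 326 at T2, 1100 ± 214 at T3 and 1356 ± 127.9 CPM at T4 (SD, n = 6 each). NVE17523 averaged 13.6 ± 6.27 CPM at T0, 48.4 ± 23.5 at T1, 74.4 ± 16.9 at T2, 88.9 ± 17.7 at T3 and 105.9 ± 17.4 CPM at T4 (SD, n = 6 each). Its T1 libraries, from 26.4 to 92.8 CPM, lay above the T0 libraries, which ended at 23.2 CPM. The libraries of both named falls were spread widely at T1. NVE16297 averaged 616.8 ± 298 CPM at T0, 335.9 ± 222 at T1, 88.7 ± 29.5 at T2, 96.2 ± 47.4 at T3 and 71.4 ± 46.2 CPM at T4 (SD, n = 6 each). NVE13078 averaged 184.8 ± 113.9 CPM at T0, 157.2 ± 132.9 at T1, 31.4 ± 15.1 at T2, 25.4 ± 19.4 at T3 and 22.5 ± 15.5 CPM at T4 (SD, n = 6 each).

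The called genes as sets passed through the time points between. The median gene among the 252 that rose stood 0.26, 0.43, 0.51 and 0.72 above its T0 level at T1, T2, T3 and T4 in mean log2 CPM. The median among the 197 that fell stood at -0.23, -0.55, -0.61 and -0.89. At T1 39.3% of the risen genes were past the midpoint between their T0 and T4 levels, at T2 77.0% and at T3 83.3%. Of the fallen genes, 24.4% were past it at T1, 61.9% at T2 and 71.1% at T3. All these values share the T0 and T4 libraries that chose the genes, so they describe the sets and test nothing.

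**Figure D5:**
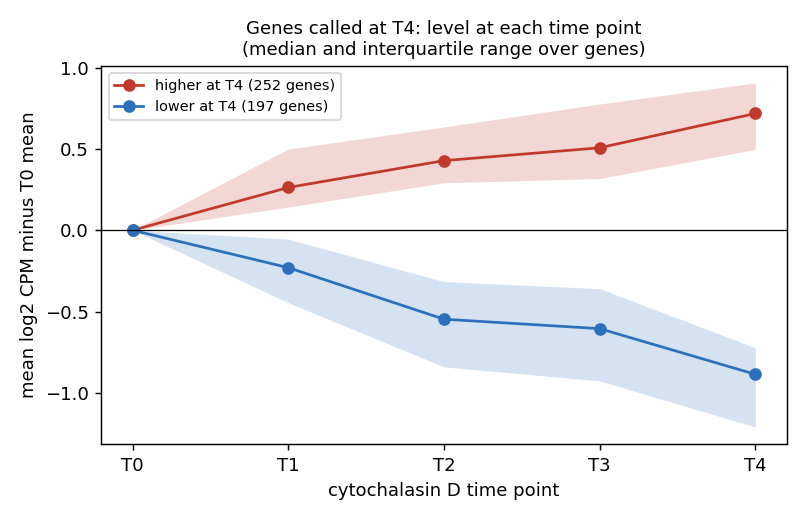
Mean log2 CPM minus the T0 mean (y axis) at each cytochalasin D time point (x axis), as the median (line) and interquartile range (band) over the 252 gene models called higher at T4 (red) and the 197 called lower (blue). The medians reach 0.43 and -0.55 at T2 and 0.72 and -0.89 at T4.

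Whether these changes were larger after cytochalasin D than in the other recovery series was asked with a direct test against calcium-free KSW, in 1 fit of all libraries. A single gene model of 5132 differed (0.0195%), NVE2343, and 331 had an unadjusted p under 0.05. Its log2 fold change of T4 over T0 was 2.73 ± 0.23 in cytochalasin D and 0.71 ± 0.22 in calcium-free KSW (SE), a difference of 2.02 ± 0.32 (SE, edgeR adjusted p = 5.13e-05). With letter pairs summed the difference was 1.97 ± 0.41 (SE) and did not pass (edgeR adjusted p = 0.169). The levels in this fit were scaled over all 84 libraries. NVE2343 stood at 1251 ± 115 CPM at T4 in cytochalasin D and 673.7 ± 81.5 CPM at T4 in calcium-free KSW (SD, n = 6 each). Its T0 levels were 189.2 ± 19.1 CPM in cytochalasin D and 414 ± 133.6 CPM in calcium-free KSW (SD, n = 6 each), so the groups' starting levels enter the difference.

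The other named gene models had the same sign in both series and did not pass the test of the difference. NVE17523 had 2.95 ± 0.35 in cytochalasin D and 0.97 ± 0.32 in calcium-free KSW on the log2 scale (SE; difference 1.97 ± 0.49, edgeR adjusted p = 0.170). That difference passed when each time point's letter pairs entered as a replicate block (edgeR adjusted p = 0.0312), and did not pass with letter pairs summed (edgeR adjusted p = 0.58). NVE16297 had -3.08 ± 0.45 and -1.41 ± 0.48 (SE; difference -1.67 ± 0.66, edgeR adjusted p = 0.668). NVE13078 had -3.02 ± 0.60 and -0.61 ± 0.79 (SE; difference -2.41 ± 1.0, edgeR adjusted p = 0.758). Of the 447 cytochalasin D calls present in this fit, the 252 that rose had a median log2 fold change of 0.75 in cytochalasin D and 0.49 in calcium-free KSW, and the 195 that fell had -0.98 and -0.49. Over all genes the medians were 0.00 and -0.02. In calcium-free KSW, 58 of the 252 were called higher and 32 of the 195 lower, where 3.86% of all genes were called in either direction. That share covers both directions and is not matched for abundance. The cytochalasin D calls lay more among abundant gene models, where smaller changes can be called. The calcium-free libraries took no part in choosing these genes, though the dispersion was estimated over all 84 libraries together. The cytochalasin D libraries did choose them, which enlarges the cytochalasin D medians. The gap between the medians of the series is thus a description and tests nothing.

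The 12 libraries held 272537 to 409888 reads each. With library totals alone, before TMM scaling, 1 read equals 2.44 to 3.67 CPM. The levels given here are TMM-scaled, so 1 read can lie outside this range: in T4 A, 1 read of NVE13078 was 4.41 CPM. Total counts averaged 329944 ± 50729 at T4 and 332853 ± 35244 at T0 (SD, n = 6 each; exact two-sided permutation test over libraries, p = 0.913). Gene models detected averaged 13898 ± 795 at T4 and 14387 ± 619 at T0 (exact p = 0.266). Over the 2267 gene models above the median abundance, log2 CPM correlated between libraries at a median of 0.928 within T4 and 0.914 within T0. Between T4 and T0 the median was 0.882. On the first principal component of the 2000 most variable gene models, which held 27.0% of the variance, the T4 libraries scored 5.72 to 21.1 and the T0 libraries -20.1 to -8.02, with T4 B nearest to T0.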

How the data were processed

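RNA of oral disc and tentacles went into libraries made by a published protocol that the labels cite, which is a tag-based method. The authors deposited raw read counts per gene model in 1 table of 23510 gene models and 84 libraries. Each column matched 1 sample title, and 0 sample columns were left unused. Bowtie2 is named in the submitters' processing notes; the sources used here do not give its role, the build, annotation, counter, use of strand or treatment of duplicates, so reads of gene copies or overlapping genes may be split or joined.

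The test was edgeR 4.0.16 (R 4.3.3; filterByExpr, TMM, glmQLFTest) on the 30 cytochalasin D libraries, contrast T4 minus T0, p-values adjusted after Benjamini-Hochberg (threshold 0.05), and again on the 15 sums of letters A and D, B and E, and C and F. SEs come from the F statistic. DESeq2 1.42.0 and limma 3.58.1 served as alternatives. Of 66 pairs among the 12 libraries, 0 were identical, and the closest (T4 A and D) differed by 1.70 times the counting error (chi-square per degree of freedom). The scripts were tested on simulated data. The libraries, the rule for named genes (2 largest rises and falls called in both tests, not overlapping, above median abundance) and the tests were chosen with earlier results of these data known. The test between letters D to F and A to C, scaling by library totals, leaving out on-off genes, the alternatives that leave out a library in the test against calcium-free KSW, and the account of the largest called changes were added after seeing the data. With no names, no gene list or marker list was used.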

Additional observations from a re-analysis of the deposited data

Results flagged for a closer look

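The T0 library B had 24.9% of its reads in its 10 most abundant gene models, apart from the other T0 libraries. In T0 C the genes called lower at T4 took 3.45% of the reads, the lowest of the T0 libraries. These were the 2 found in 20 checks for a library that stands apart, each of 1 measure in either the T4 or the T0 group (Dixon's test at its 95% critical value, which chance passes in about 1 of 20 checks).

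The rise of NVE2343 from T0 to T4 differed between the recovery series, by 2.02 on the log2 scale (cytochalasin D minus calcium-free KSW; edgeR adjusted p = 5.13e-05), and the test did not pass with letter pairs summed (edgeR adjusted p = 0.169).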

How the results depend on the processing

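The 4 named gene models kept their direction and passed the threshold in all 24 per-library and all 11 summed alternatives, with log2 fold changes of 2.65 to 3.42 for NVE17523, 2.66 to 2.76 for NVE2343, -3.49 to -2.90 for NVE16297 and -3.22 to -2.59 for NVE13078 per library. These alternatives reuse the libraries that chose the 4 gene models, which favours passing. The percent of genes called moved more. Against 9.9% called per library (5.56% higher, 4.34% lower), library totals alone gave 3.55% higher, a median log2 fold change of -0.061 and 43.96% of all genes higher. The 12 libraries alone gave a median of -0.0038, 49.57% higher and 4.43% over 1 in size, against 5.6%. A fit of all 84 libraries called 4.77%, 2.14% higher. Letters A to C called 0.598% (0.289% higher, 0.309% lower) and letters D to F 5.3% (2.75% higher, 2.55% lower), with 11.2% over 1 in size; these have fewer samples. limma-voom with the letter pair as a random effect called 2.85% lower. Leaving out 1 library gave 6.2% to 10.4% called, 3.33% to 5.52% higher, a median of -0.00597 to 0.00979 and 49.43% to 50.86% of genes higher, the lowest percent called being without T4 D. With letter pairs summed (2.91% called), no filter gave 1.78% (402 gene models; 0.752% higher, 1.03% lower), and leaving out 1 sum gave 0.718% to 2.01% called, 0.315% to 1.23% higher and 0.403% to 0.821% lower. The cause of these shifts was not tested. Same-letter deviations of T4 and T0 correlated from -0.09 to 0.22, over 0.1 in 3 of 6, so the letters were not used as pairs, and whether same-letter libraries share a source is not known; with letters as a replicate block 517 gene models were called per library, and 225 with the letter pair as a block for the sums.

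The test against calcium-free KSW (1 gene model, higher) gave 4 with the replicate block of time point and letter pair (2 higher, 2 lower), 0 with letter pairs summed (0 higher; edgeR, with 422 at an unadjusted p under 0.05), 2 with DESeq2 (1 lower) and 4 with no filter (3 lower). Leaving out 1 library gave 1 to 4, with 0 to 3 lower: 4 without the calcium-free T4 D, and 2 without the calcium-free T0 D or T4 E or the cytochalasin D T0 A or C. With at least 30 reads in place of 10, 0 gene models had reads only at T4 and 4 only at T0. In the least abundant of the 5 classes, the smallest change called was 0.95 on the log2 scale. With library totals alone, before TMM scaling, 1 read was 2.44 to 3.67 CPM. Depth and the spread between libraries were not separated.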
